A study of Mus musculus with 8 samples.

Results

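Vcan, Fn1, F13a1, Chil3 and Msr1 encode proteins of the extracellular matrix, a clot-stabilizing enzyme, a secreted lectin and a scavenger receptor, and all are known products of monocytes or macrophages. They were selected on their large rise in the stress samples of this experiment, and they are 5 of the 21878 gene symbols in the count table. Their levels and fold changes are therefore given as a description, without a test. RNA from whole peripheral blood, flash frozen after collection, was turned into TruSeq libraries and sequenced in 8 samples. The stress group held 4 samples from female wild-type C57BL/6 mice aged 6 to 8 weeks that had been restrained in a ventilated tube for 6 hours, with neither food nor water. The control group held 4 samples from littermates of the same sex, strain, genotype and age that stayed in their cage and also went without food and water, so the groups differed by restraint and not by fasting. The labels number the samples within a group but do not state that each came from a separate animal, and p-values measure the spread between these samples. Whole blood mixes red cell precursors, platelets and all leukocytes, and in such bulk samples fewer or more cells of a type and less or more RNA per cell cannot be told apart.

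Versican, the product of Vcan, is a large proteoglycan that carries chondroitin sulfate chains and binds hyaluronan, and fibronectin, the product of Fn1, is a matrix glycoprotein bound by integrins. F13a1 encodes the A subunit of coagulation factor XIII, a transglutaminase that cross-links fibrin and is made by megakaryocytes as well as by monocytes and macrophages. Chil3, also known as Ym1, encodes a secreted chitinase-like lectin of myeloid cells, and Msr1 encodes the class A scavenger receptor, through which macrophages take up modified lipoproteins and microbial products.

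The libraries differed in composition between the groups. The total count lay at 31471145 or more in every control sample, up to 39014775, and between 25978683 and 29655725 in the stress samples. The share of counts in haemoglobin genes averaged 58.5% ± 5.17 in control and 68.4% ± 6.06 in stress samples (SD, n = 4 each). The counts left for all other genes numbered 11409246 to 18771951 in the control samples and 6352711 (stress replicate 3) to 11007593 in the stress samples, so low genes were measured with fewer reads in the stress group. Levels are given as CPM, the reads of a gene per 1000000 reads of a library size scaled by TMM, a normalization that takes most genes as unchanged. On this scale the median log2 fold change of the 11718 tested genes was -0.02, against -0.82 with libraries scaled by total counts alone and -0.43 with libraries scaled by the counts outside the haemoglobin genes. A fold change on the TMM scale is thus relative to the typical gene, and values on the other scales are given where they change the reading.

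All 5 genes lie on the minus strand of the GRCm38 genome in the GENCODE M21 annotation. Vcan (chr13:89655312-89742509), Chil3 (chr3:106147554-106167564) and Msr1 (chr8:39581685-39642673) share no exon bases with another annotated gene. Fn1 (chr1:71585520-71653200) shares 292 exon bases with the antisense gene Apol7d, and F13a1 (chr13:36867178-37050244) shares 74 with the antisense gene Gm30489. The use of strand in the counting is not given in the sources used here, so reads from these antisense partners, which have no row of their own in the count table, could not be told apart from those of Fn1 and F13a1. The RefSeq promoter table of GRCm38.p6 held 3 of the 5 genes, Vcan, Chil3 and F13a1, the last with 2 start sites. Because Vcan and Chil3 ranked 1 and 3 by fold change, the 250 bases before their start sites are shown as the sequence next to 2 genes with large fold changes, 5′ to 3′ on the gene's strand. The Vcan stretch is chr13:89742513-89742762 and the Chil3 stretch is chr3:106167565-106167814.
Vcan promoter: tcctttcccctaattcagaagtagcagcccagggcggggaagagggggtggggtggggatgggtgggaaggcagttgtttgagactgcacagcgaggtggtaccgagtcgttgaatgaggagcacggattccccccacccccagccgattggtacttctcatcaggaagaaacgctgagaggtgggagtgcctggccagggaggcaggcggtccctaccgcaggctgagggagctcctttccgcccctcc
Chil3 promoter: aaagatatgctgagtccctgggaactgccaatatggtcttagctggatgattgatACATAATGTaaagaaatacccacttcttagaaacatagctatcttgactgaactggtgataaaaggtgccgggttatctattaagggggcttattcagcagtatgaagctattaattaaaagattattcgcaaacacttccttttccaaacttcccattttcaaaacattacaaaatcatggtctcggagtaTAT
The Vcan stretch had a GC content of 62.4% and the Chil3 stretch of 36.4%. Capitals mark letters that matched 1 of 5 motifs searched on both strands from 250 bases before to 50 bases after each start: TGANTCA (AP-1), TTNNGCAA (C/EBP), GAGGAAGT (PU.1), ACANNNTGT (the core of the glucocorticoid receptor palindrome) and TATAAA (the TATA box). In Chil3 the core ACANNNTGT was matched at 195 bases before the start, and TATAAA was matched from 3 bases before the start, so that its last letters lie past the printed stretch. No motif was matched in Vcan, and GAGGAAGT was matched in F13a1 at 14 bases after its inner start site. Of the 32851 promoters in the table, 7.81% held TGANTCA, 10.8% TTNNGCAA, 3.20% GAGGAAGT, 6.85% ACANNNTGT and 13.6% TATAAA. A match is a match of letters and does not show that a factor binds there.

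Vcan was low in the control group, at 0.326, 0.542, 0.780 and 0.189 CPM in replicates 1 to 4, which rest on 12, 28, 54 and 6 reads. In the stress group it stood at 16.5, 2.04, 4.71 and 19.0 CPM, from 369, 44, 62 and 594 reads. No stress sample overlapped the control samples, stress replicates 1 and 4 lay far above stress replicates 2 and 3, and the lowest stress sample was 2.62-fold above the highest control sample. Control samples averaged 0.459 ± 0.259 CPM and stress samples 10.6 ± 8.43 CPM (SD, n = 4 each), giving a log2 fold change of 4.42 (standard error 0.66), which ranked 1 among the 11718 tested genes. Vcan had at least 10 reads in only 3 control samples and so passed the filter of 10 reads in at least 4 samples through the stress group, whereas the other 4 genes had at least 10 reads in every sample. Its highest stress sample was 9.32-fold above its lowest, a wider range than that of any other of the 5 genes.

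Fn1 was steady in the control group, at 14.2, 12.4, 14.3 and 15.9 CPM. In the stress group it measured 94.6, 29.5, 35.9 and 102 CPM, again highest in replicates 1 and 4. The groups did not overlap, and the lowest stress sample was 1.86-fold above the highest control sample. Control samples averaged 14.2 ± 1.43 CPM and stress samples 65.4 ± 38.0 CPM (SD, n = 4 each), giving a log2 fold change of 2.21 (standard error 0.35), ranked 13. The highest control sample was 1.28-fold above the lowest and the highest stress sample 3.45-fold, so the spread of Fn1 lay mostly within the stress group. With libraries scaled by total counts alone, Fn1 had a log2 fold change of 1.57 and its groups overlapped, since stress replicate 3 stood at 18.2 and control replicate 3 at 25.4 CPM of all counts.

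F13a1 differed from the other genes in its even level across the stress group on the TMM scale. Its control samples measured 57.7, 39.1, 41.9 and 54.5 CPM and its stress samples 123, 103, 116 and 123 CPM. The groups did not overlap, and no stress sample was more than 1.19-fold above another. Control samples averaged 48.3 ± 9.17 CPM and stress samples 116 ± 9.29 CPM (SD, n = 4 each), giving a log2 fold change of 1.27 (standard error 0.14). By fold change F13a1 ranked 196, so the description of all 5 as the genes with the largest rise did not hold for it by that measure. By the difference in mean CPM, which takes no account of length, it ranked 208, ahead of Fn1 (255), Chil3 (301), Vcan (894) and Msr1 (1684). With total counts alone its log2 fold change was 0.53, with control samples at 63.6 ± 9.02 and stress samples at 91.9 ± 33.4 CPM of all counts (SD, n = 4 each), and its groups overlapped. The stress samples were not even on that scale, at 98.2, 75.1, 58.6 and 136 CPM of all counts. Scaling by the counts outside the haemoglobin genes, a choice made after seeing the data, gave a log2 fold change of 0.89.

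Chil3 measured 5.73, 5.20, 6.76 and 9.52 CPM in the control samples and 60.6, 24.0, 44.3 and 71.7 CPM in the stress samples. The groups did not overlap, stress replicate 2 being the lowest of its group and still 2.52-fold above the highest control sample. Control samples averaged 6.80 ± 1.92 CPM and stress samples 50.2 ± 20.8 CPM (SD, n = 4 each), giving a log2 fold change of 2.89 (standard error 0.31), ranked 3. Chil3 has a near-identical neighbour, Chil4, on the same chromosome. The coding sequence of Chil3 has 1197 bases and that of Chil4 1209, and 94.4% of the aligned positions were identical, with 68 differences and a longest identical stretch of 136 bases. The stretch of 60 coding bases in which they differ most is shown on the minus strand, at chr3:106155714-106155773 for Chil3 and chr3:106206041-106206100 for Chil4, with the 10 differing bases in capitals.
Chil3 coding stretch: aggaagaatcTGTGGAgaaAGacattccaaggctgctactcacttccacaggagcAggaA
Chil4 coding stretch: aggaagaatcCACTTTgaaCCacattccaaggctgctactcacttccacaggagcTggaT
Over the 8 libraries 5951 reads were counted for Chil3 and 0 for Chil4, which allows a Chil4 level of up to 0.0120 CPM of all counts (3 reads, counting error only). Reads that fall in stretches identical in both genes cannot be assigned to either by their letters, and how the counting treated them is not given in the sources used here.

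Msr1 varied little in the control group, at 0.598, 0.600, 0.737 and 0.599 CPM, from 22, 31, 51 and 19 reads. In the stress samples it measured 5.71, 1.85, 3.42 and 4.96 CPM, from 128, 40, 45 and 155 reads. The groups did not overlap, and the lowest stress sample, replicate 2, was 2.52-fold above the highest control sample. Control samples averaged 0.633 ± 0.0690 CPM and stress samples 3.98 ± 1.71 CPM (SD, n = 4 each), giving a log2 fold change of 2.65 (standard error 0.32), ranked 5.

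**Figure D1:**
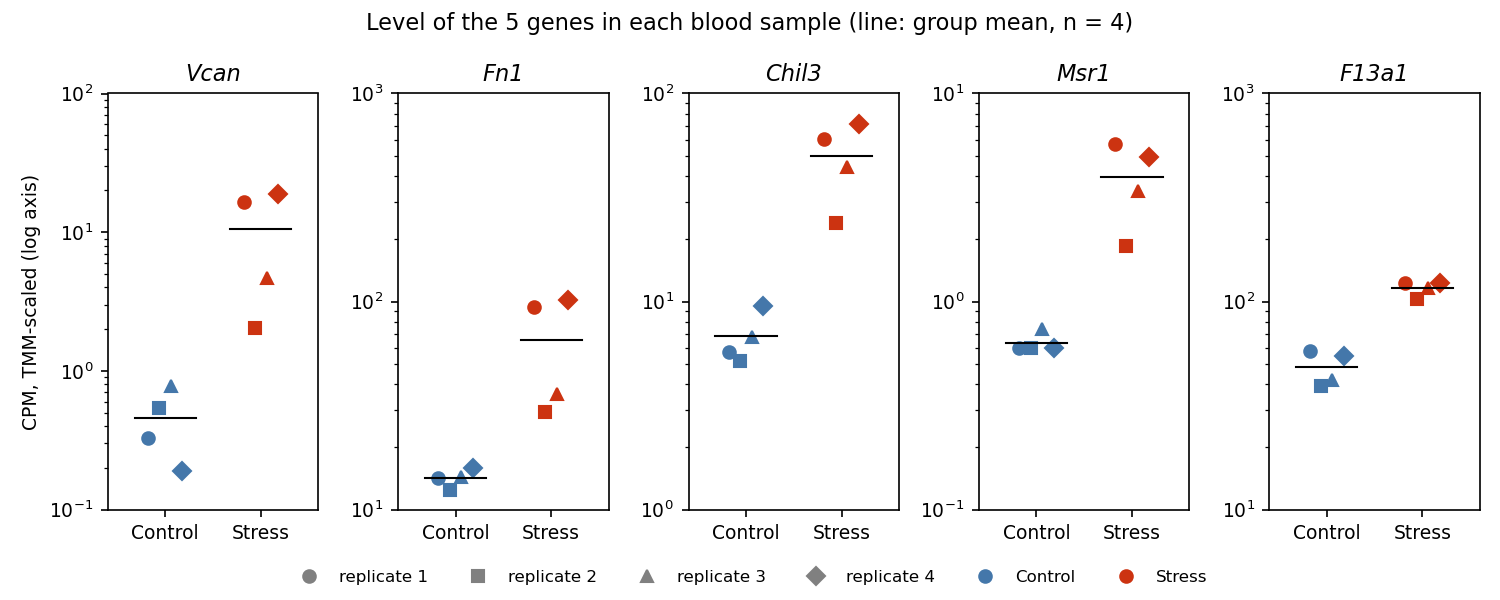
Level of each gene in CPM (log axis) in the 4 control and 4 stress samples, with 1 marker shape per replicate number and a line at the group mean. Every stress sample lies above every control sample for all 5 genes, and the stress samples spread widely for Vcan, Fn1, Chil3 and Msr1 but within 1.19-fold for F13a1.

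The stress samples of all 5 genes lay above the control samples on the TMM scale, an order found for 1301 of the 11718 tested genes (11.1%), while 1157 genes (9.87%) had every stress sample below. The genes were chosen by this contrast, so nothing is read from their order. Per kilobase of annotated exon, the levels in the control group were highest for F13a1 (7.17 ± 1.36 CPM per kilobase, SD, n = 4) and Chil3 (4.17 ± 1.18), followed by Fn1 (1.22 ± 0.122), Msr1 (0.0998 ± 0.0109) and Vcan (0.0318 ± 0.0179). In the stress group Chil3 came first at 30.7 ± 12.7 CPM per kilobase (SD, n = 4) and F13a1 next at 17.2 ± 1.38, followed by Fn1 (5.60 ± 3.25), Vcan (0.730 ± 0.583) and Msr1 (0.628 ± 0.270). The means of F13a1 and Chil3 thus exchanged places, but their single values overlapped in both groups, and the lowest Chil3 value in the stress group (14.7 CPM per kilobase) lay below every F13a1 value there. Vcan and Msr1 did not differ beyond their spread in the stress group, and Fn1 stood apart from both pairs in each group.

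On the scale of total counts the stress samples of Vcan, Chil3 and Msr1 still lay above all control samples. Their log2 fold changes were 3.76, 2.22 and 1.90. The margin was narrow for Vcan, with stress replicate 2 at 1.48 and control replicate 3 at 1.38 CPM of all counts. It was narrow for Msr1 too, with the same samples at 1.35 and 1.31, and wider for Chil3. The groups of Fn1 and F13a1 overlapped on this scale. Each of the 5 genes had a log2 fold change above 0 on every scale and with any single sample left out. Leaving out stress replicate 4 gave the smallest log2 fold changes of Vcan (3.97), Fn1 (1.91) and Chil3 (2.67), whereas leaving out stress replicate 2 gave the largest of Fn1 (2.47), Chil3 (3.15) and Msr1 (2.91).

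**Figure D2:**
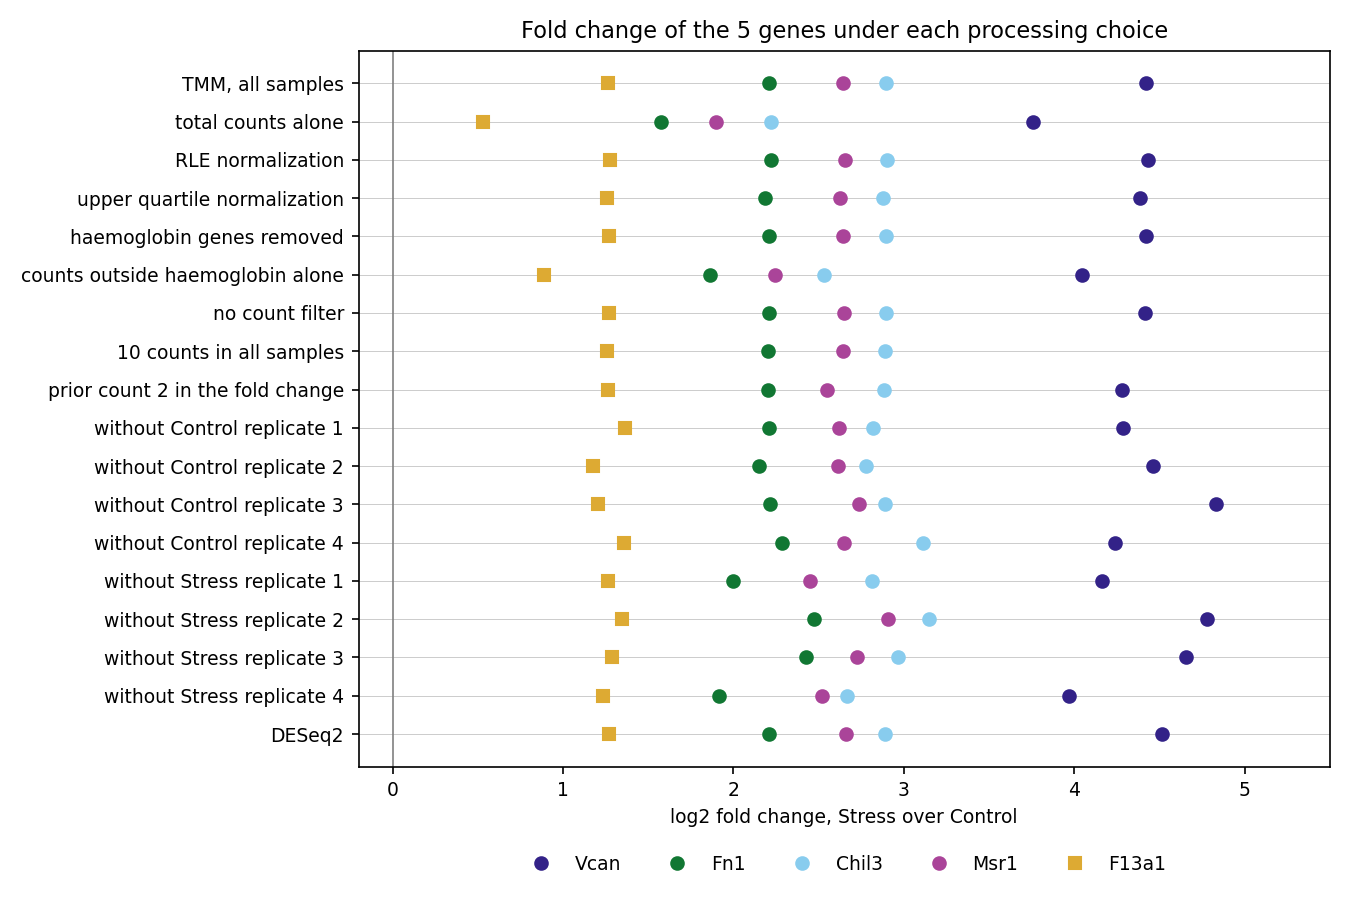
Log2 fold change of stress over control for the 5 genes (horizontal axis) under each normalization, filter, left-out sample and test (vertical axis). All points lie above 0, and those for total counts alone are the lowest of every gene, at 3.76 for Vcan, 1.57 for Fn1, 2.22 for Chil3, 1.90 for Msr1 and 0.53 for F13a1. Vcan has no point for 10 counts in all samples, a filter it did not pass.

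Within the groups, the deviations of Vcan, Fn1, Chil3 and Msr1 were more alike among themselves than like those of F13a1 when all 8 samples were used. To describe this, the group mean of log2 CPM was taken off each sample, which removes the difference between the groups on which the genes were chosen, and Pearson's r was computed over the 8 deviations. In stress replicate 2, the deviation was -1.84 on the log2 scale for Vcan, -0.94 for Fn1, -0.95 for Chil3 and -0.96 for Msr1, against -0.17 for F13a1. In stress replicate 4, it was 1.35 for Vcan, 0.85 for Fn1, 0.63 for Chil3 and 0.43 for Msr1, against 0.09 for F13a1. The r of Vcan was 0.910 with Msr1, 0.821 with Fn1 and 0.632 with Chil3, and Fn1, Chil3 and Msr1 had r between 0.838 and 0.885 among themselves (8 samples that share the libraries and their scaling). F13a1 had r of 0.536 with Chil3, 0.449 with Fn1, 0.303 with Msr1 and 0.00379 with Vcan.

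**Figure D3:**
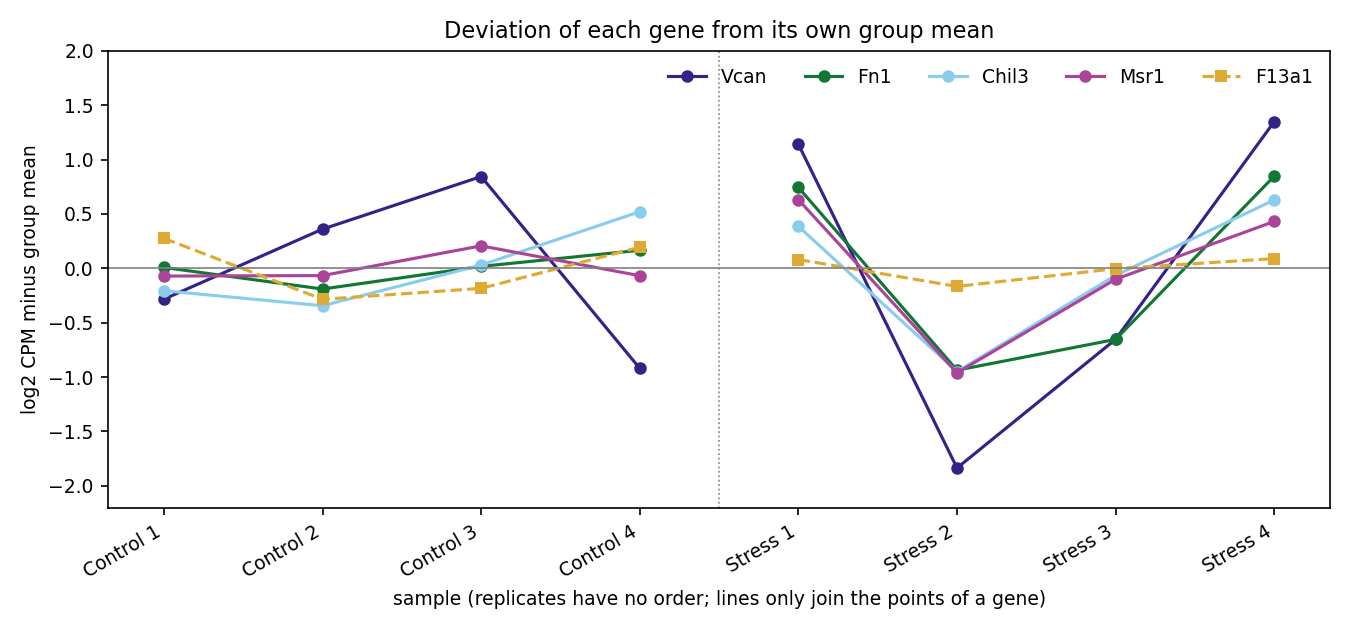
Deviation of each gene from its own group mean (vertical axis, log2 CPM) in each of the 8 samples (horizontal axis), the lines joining points of a gene only to guide the eye. Vcan, Fn1, Chil3 and Msr1 deviate by -0.94 to -1.84 in stress replicate 2 and lie above their mean in stress replicates 1 and 4, and F13a1 lies between -0.17 and 0.09 in the stress group.

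Much of this likeness rested on the outer stress samples. Without stress replicates 2 and 4, r over the 6 remaining samples was 0.850 for Vcan and Msr1 and 0.887 for Fn1 and Msr1, but 0.557 for Vcan and Fn1, 0.625 for Fn1 and Chil3, 0.416 for Chil3 and Msr1 and -0.0854 for Vcan and Chil3. Spearman's rho over all 8 samples was 0.905 for Vcan and Msr1, 0.905 for Fn1 and Chil3, 0.857 for Fn1 and Msr1, 0.738 for Vcan and Fn1, 0.667 for Chil3 and Msr1 and 0.548 for Vcan and Chil3. For F13a1, rho was 0.476 with Chil3, 0.452 with Fn1, 0 with Msr1 and -0.0238 with Vcan. Without stress replicates 2 and 4 its r was 0.442 with Chil3, 0.293 with Fn1 and -0.496 with Vcan, and without stress replicates 1 and 2, the farthest of Msr1, it was -0.127 with Msr1. With replicates 2 and 4 left out, Chil3 was thus as close to F13a1 as to Msr1, so the order of likeness between the genes depended on the outer samples. On total counts alone F13a1 had r of 0.827 to 0.929 with the other 4 genes, but on that scale the median r of all 9781 genes compared was itself between 0.630 and 0.804 to each of the 5 genes, against -0.00305 to 0.0416 on the TMM scale, so a shared scaling moved most genes together there.

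Among the 9781 tested genes with a mean of at least 50 reads, the 3 most like each gene by r within the groups were named without regard to their change. For Vcan they were Rogdi (r = 0.988), Ppp3cb (0.985) and Soat1 (0.984), with log2 fold changes of -0.05, -0.10 and 0.23. For Fn1 they were Gpr146 (0.983), Mpeg1 (0.978) and Xrcc6bp1 (0.977), with log2 fold changes of 0.28, 1.11 and -0.21. For Chil3 they were Gm4070 (0.978), Ms4a4a (0.972) and Cutc (0.972), with log2 fold changes of 0.05, 1.45 and -0.18. For Msr1 they were Pcif1 (0.983), Polr3d (0.981) and Rnpep (0.979), with log2 fold changes of -0.15, -0.10 and 0.46. For F13a1 they were Metrnl (0.984), Gatsl3 (0.971) and Pacsin2 (0.969), with log2 fold changes of 0.87, 0.10 and 0.69. How large the highest of 9781 values of r would be by chance over 8 samples was not tested.

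Some cell type markers of whole blood were called in the same contrast, and their part in the levels of the 5 genes was not tested. The marker lists too were chosen with earlier results of these data known, so their counts are a description. Of all 11718 tested genes, 1.69% were called up. Of 15 classical monocyte markers 4 were called up (log2 fold change above 1 and adjusted p below 0.01 in edgeR's quasi-likelihood test, as for all calls), namely Lyz2, S100a4, Cd14 and Ccr2, and none of the 15 was at 0. Of the 15, 14 had a log2 fold change above 0, but several moved little and were not called. These were Ms4a4c (-0.10), Ms4a6c (0.02), Ly86 (0.23) and Klf4 (0.25). The summed level of the 15 was 456, 380, 442 and 483 CPM in the control samples and 1096, 640, 1011 and 976 CPM in the stress samples. Lyz2 alone made up most of this sum in every sample (273 CPM on average in control and 679 in stress samples), so the sum mainly follows Lyz2. Stress replicate 2, the sample lowest in Vcan, Fn1, Chil3 and Msr1, was also the lowest stress sample in this sum. Leaving out each sample in turn, Lyz2 was called in 8 of 8 fits, S100a4 in 7 and Cd14 in 5. Ccr2, a chemokine receptor of classical monocytes, had a log2 fold change of 1.70 (adjusted p = 0.00742), but its groups overlapped and its call held only in the fit without stress replicate 2 among those that left out a sample. In the 7 other fits its adjusted p lay between 0.0154 and 0.0690.

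All 20 platelet and megakaryocyte markers had every stress sample above every control sample, against 11.1% of all tested genes. Of the 20 markers 7 were called up, against 1.69% of all tested genes, with F2rl2, Gp5 and Gp1bb at the smallest p. Leaving out each sample in turn, Gp1bb was called in 8 of 8 fits, F2rl2 in 7 and Gp5 in 5, whereas Gng11, Pf4 and Itgb3 were called in 3 and Treml1 in 4. The sum of the 20 markers was 4301, 2996, 2954 and 4319 CPM in the control samples and 6538, 7440, 8135 and 6442 CPM in the stress samples, with Nrgn the most abundant (857 and 1663 CPM) and no marker at 0. Of 15 tested mature neutrophil markers 9 were called up, with S100a8, S100a9 and Retnlg at the smallest p. With a sample left out, these 3 and Il1r2 were called in 8 of 8 fits, Hdc in 7, Ly6g and Mmp8 in 6 and Cxcr2 and Trem1 in 5. The sum of the list went from 403 ± 89.2 to 798 ± 109 CPM (SD, n = 4), with Csf3r the most abundant (118 and 209 CPM) and no marker at 0. The 10 non-classical monocyte markers had none called in either direction by edgeR and 1 called down by DESeq2, 4 had an unadjusted p below 0.05, all lower, and their sum was 180 ± 24.7 and 142 ± 23.2 CPM (SD, n = 4), with Spn the most abundant and none at 0. Of the markers of resident macrophages, cells in which Msr1 and F13a1 are also known, only 5 of 15 had enough reads to be tested, Marco was at 0 in every sample, and the sum was 8.99 ± 1.10 CPM for control and 13.8 ± 4.07 CPM for stress samples (SD, n = 4 each), with Adgre1 the most abundant. No resident macrophage marker was called by edgeR, 1 was called up by DESeq2, and 3 had an unadjusted p below 0.05, all higher. Fibroblast markers, which would accompany matrix genes made by connective tissue, summed to 4.84 ± 1.44 CPM for control and 8.61 ± 1.78 CPM for stress samples (SD, n = 4 each), with no marker at 0. Of 4 tested, none was called by edgeR and 1 was called up by DESeq2. Col1a2, the most abundant over all samples at 1.29 and 3.56 CPM, had a log2 fold change of 1.48 and groups that did not overlap, with an adjusted p of 0.0102 just above the threshold. On total counts the median of the list went from a log2 fold change of 0.58 to -0.12 for resident macrophage markers, from 0.45 to -0.30 for fibroblast markers, from 1.00 to 0.27 for classical monocyte markers and from 0.98 to 0.22 for platelet markers.

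Set against the summed classical monocyte markers in the same sample, 4 of the genes stood higher in the stress group without overlap, and F13a1 did so only with Lyz2 left out. The genes were chosen for their rise in these samples, and the marker sum differed by 2.11-fold, less than any of the 5 genes, so higher ratios in the stress group follow from the choice and are given as a description only. Vcan stood at 0.107% ± 0.0632 in control and 1.06% ± 0.793 in stress samples (SD, n = 4 each), a 9.85-fold difference. Chil3 went from 1.53% ± 0.313 to 5.25% ± 1.58 of that sum (SD, n = 4 each), which was 3.43-fold. Msr1 went from 0.145% ± 0.0206 to 0.414% ± 0.118 (SD, n = 4 each), which was 2.86-fold. For Fn1 the share was 3.23% ± 0.0738 (SD, n = 4) without restraint, where the 4 samples lay between 3.12% and 3.29%, and 6.80% ± 3.26 (SD, n = 4) with it, 2.11-fold, with stress replicate 3 at 3.55%. The groups of these 4 ratios did not overlap. F13a1 stood at 10.9% ± 1.36 of the sum in control and 12.8% ± 2.28 in stress samples (SD, n = 4 each), 1.17-fold, and the groups overlapped, although without Lyz2 in the sum the ratio was 1.69-fold and the groups did not overlap. Relative to the summed non-classical monocyte markers all 5 genes stood higher in the stress group without overlap, 27.2-fold for Vcan, 9.53-fold for Chil3, 7.78-fold for Msr1, 5.76-fold for Fn1 and 3.09-fold for F13a1.

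Against platelet markers F13a1 stood at 1.33% ± 0.0666 of the summed platelet markers in control and 1.65% ± 0.284 in stress samples (SD, n = 4 each), 1.24-fold with overlapping groups. Vcan was 11.2-fold and Chil3 3.84-fold higher relative to that sum, without overlap. The groups of Fn1 (2.42-fold) overlapped on this scale, with stress replicates 2 and 3 inside the range of the control samples. Those of Msr1 (3.18-fold) overlapped narrowly, with stress replicate 2 at 0.02493% and control replicate 3 at 0.02495%, and no longer overlapped with Nrgn left out of the sum (3.13-fold). Relative to mature neutrophil markers the differences were 9.59-fold for Vcan and 3.55-fold for Chil3, without overlap, and 2.95-fold for Msr1, 2.17-fold for Fn1 and 1.20-fold for F13a1, with overlap.

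**Figure D4:**
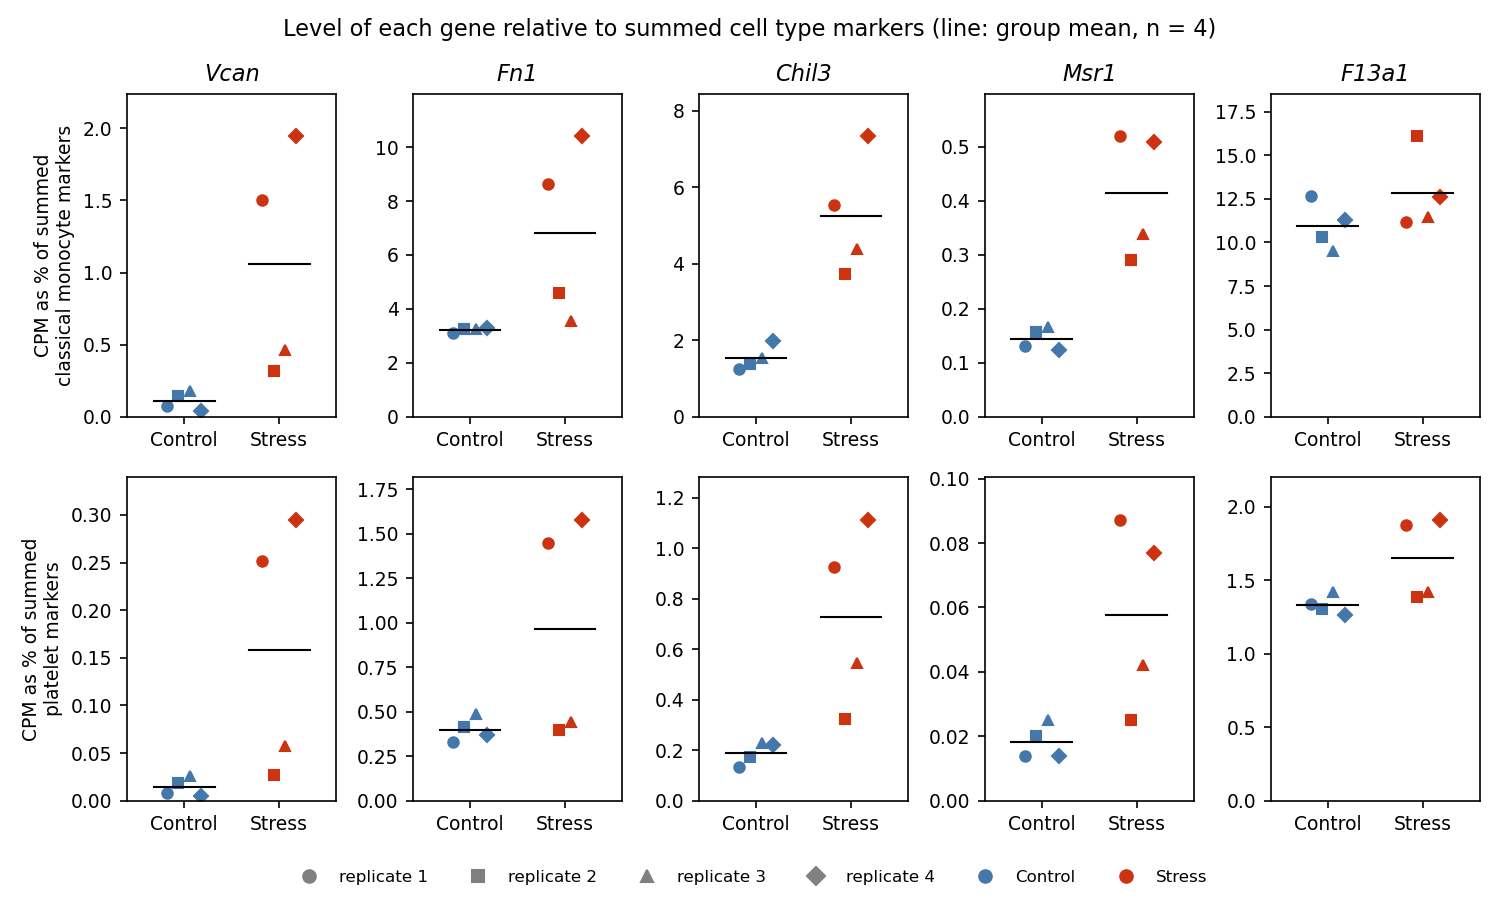
Level of each gene as a percentage of the summed CPM of 15 classical monocyte markers (top) and 20 platelet markers (bottom) in each sample, with a line at the group mean of 4 samples. The groups of F13a1 overlap in both rows, those of Vcan and Chil3 in neither, and those of Fn1 and Msr1 in the lower row only.

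Within the groups, which the choice of genes did not use, F13a1 had r above 0 with 20 of 20 platelet markers (median 0.712), and its median r with the 15 classical monocyte markers was 0.486. The likeness was not particular to platelets, since its r with summed markers was 0.688 for platelets, 0.684 for fibroblasts, 0.642 for mature neutrophils, 0.629 for classical monocytes, 0.617 for resident macrophages and 0.611 for endothelial cells. The other genes had a higher median r with the classical monocyte markers, at 0.622 (Vcan), 0.678 (Fn1), 0.748 (Chil3) and 0.782 (Msr1), above 0 for 15 of 15 in each, than with the platelet markers, at -0.646, -0.202, 0.0159 and -0.341. Nor was this particular to classical monocytes. With summed markers Vcan had r of 0.897 for dendritic cells and 0.850 for B cells against 0.552 for classical monocytes, Fn1 had 0.878 for resident macrophages and 0.832 for dendritic cells against 0.682, Chil3 had 0.875 for the hepatocyte list, in which only Trf was tested, against 0.860, and Msr1 had 0.838 for classical monocytes, 0.795 for dendritic cells and 0.738 for B cells. These are descriptions over 8 samples that share their libraries, and no difference between them was tested.

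The genes that act with the 5 were described from 9 lists chosen by role, which held 213 genes, 131 of them tested. The lists were chosen with earlier results of these data known. The shares below are therefore a description, and a share above that of all genes is no independent support. Of these 15 (11.5%) were called up, against 198 of all 11718 tested genes (1.69%), and 37 (28.2%) had every stress sample above every control sample, against 11.1% of all tested genes. None was called down by edgeR or by DESeq2, against 2 of all tested genes by edgeR (0.0171%), and for 5 (3.82%) the stress group lay wholly below the control group, against 9.87% of all. At an unadjusted p below 0.05, 54 (41.2%) were higher and 6 (4.58%) lower, against 18.17% and 13.01% of all tested genes. The median log2 fold change of the 131 genes was 0.47. These counts depended on the samples fitted and on the scale. With a sample left out, the filter asked for 10 reads in at least 3 samples in place of 4, and 7 partner genes were called up without control replicate 2 and 9 without control replicate 3. All genes together then gave 76 and 96 called up, and 336 without control replicate 4. With total counts alone 2 partner genes were called up and 4 down, and 14 and 729 of all genes. All 15 called partner genes kept a positive sign there, but most list medians did not. The median log2 fold change on the TMM scale and on total counts alone was 0.66 and -0.08 for the integrins, 0.61 and -0.16 for other matrix genes, 0.55 and -0.22 for proteases and inhibitors, 0.61 and -0.11 for scavenger receptors, 0.58 and -0.13 for clotting and fibrinolysis, 0.03 and -0.69 for the chitinase family and 0.48 and -0.18 for genes of alternatively activated macrophages. It was 0.79 and 0.07 for the versican and hyaluronan list and -0.05 and -0.84 for chondroitin sulfate synthesis. Leaving out each sample in turn, Chil1, Emilin2, F10 and Serpine2 were called in 8 of 8 fits, F2rl2, Ltbp1, Tgfbi and Thbs1 in 7, Adam8, Clec7a and Mmp8 in 6, Fgl2 and Itgb3 in 3 and Olr1 and Timp3 in 1. Leaving out control replicate 2 ended the most of these calls (8), followed by control replicate 3 (6) and stress replicates 3 and 4 (5 each). Of the 15, 2 are also on the list of platelet markers and 1 on that of mature neutrophil markers.

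Around versican, no gene of the hyaluronan list was called by edgeR among 5 tested, 1 was called up by DESeq2, and 3 had an unadjusted p below 0.05, 2 of them higher. Cd44, the main hyaluronan receptor of leukocytes, measured 67.8 ± 9.45 and 126 ± 11.2 CPM (SD, n = 4), with groups that did not overlap and a log2 fold change of 0.89 below the threshold of 1 (adjusted p = 0.00109). Lyve1, another hyaluronan receptor and the next most abundant gene of the list, measured 1.01 ± 0.274 and 2.10 ± 0.432 CPM (SD, n = 4, log2 fold change 1.08, adjusted p = 0.0240, not called), without overlap. The hyaluronan synthase Has3 lay in the other direction, at 0.985 ± 0.313 and 0.377 ± 0.251 CPM (SD, n = 4, log2 fold change -1.27, adjusted p = 0.0806, not called), also without overlap. Has2, a synthase as well, and the link protein genes Hapln1 and Hapln4 had no read in any sample. None of the 19 tested genes of chondroitin sulfate synthesis was called by edgeR or DESeq2, and 6 had an unadjusted p below 0.05, 4 of them higher, but 3 missed a call only by the size of the fold change. These were Csgalnact1, with a log2 fold change of 0.86 (adjusted p = 0.00166), Chst12, with 0.62 (adjusted p = 0.00310), and Srgn (adjusted p = 0.00313), each with every stress sample above every control sample. Srgn, whose product serglycin carries such chains inside leukocyte granules, measured 201 ± 27.9 and 373 ± 47.3 CPM (SD, n = 4), and Chst3, a sulfotransferase, 96.0 ± 7.25 and 61.9 ± 21.0 CPM.

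Among the partners of fibronectin, Itgb3 was called up of 9 tested integrin genes, from 184 ± 44.9 to 370 ± 56.0 CPM (SD, n = 4, log2 fold change 1.00, adjusted p = 0.00454), and it is also a platelet marker. Its call was lost without control replicate 2 or 3 or stress replicate 1, 2 or 4, with log2 fold changes between 0.89 and 1.05. Of 32 other tested matrix genes 5 were called up in edgeR's test with Benjamini-Hochberg adjustment. They were Thbs1, encoding thrombospondin 1, with a log2 fold change of 1.37, Emilin2 with 1.28, Fgl2 with 1.13, Tgfbi with 1.10 and Ltbp1 with 1.07, and their adjusted p lay between 9.00e-04 and 0.00458. Thbs1 was the most abundant, at 203 ± 55.9 and 524 ± 130 CPM (SD, n = 4). Of 17 tested proteases and inhibitors of the matrix, Mmp8 (the neutrophil collagenase, log2 fold change 2.09), Adam8 (1.27) and Timp3 (1.22) were called up. Mmp8 is also on the neutrophil list, and the call of Timp3 held only in the fit without control replicate 1 among those that left out a sample.

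Beside Msr1, 2 of 14 tested scavenger receptor genes were called up. Olr1, which encodes a receptor for oxidized lipoprotein, measured 0.255 ± 0.0609 and 0.975 ± 0.374 CPM (SD, n = 4), with a log2 fold change of 1.98, and its call held only in the fit without stress replicate 2 among those that left out a sample. Clec7a, which encodes the beta-glucan receptor dectin-1, had a log2 fold change of 1.22 (adjusted p = 0.00310). Beside F13a1, 3 of 20 tested clotting and fibrinolysis genes were called up, namely F10 (1.46), Serpine2 (1.25) and F2rl2 (1.08, also a platelet marker), whereas F13b, which encodes the carrier subunit of factor XIII, and the fibrinogen genes Fga, Fgb and Fgg had no read. Beside Chil3, Chil1 was called up of 5 tested family members, from 3.06 ± 0.667 to 8.28 ± 2.37 CPM (SD, n = 4, log2 fold change 1.46, adjusted p = 0.00124). Chil5 lay in the other direction without overlap, at 4.99 ± 0.584 and 2.74 ± 0.843 CPM (SD, n = 4, log2 fold change -0.84, adjusted p = 0.0196, not called), and at an unadjusted p below 0.05 1 of the 5 genes was higher and 1 lower. Of 13 tested genes known from alternatively activated macrophages, of which Chil3 is itself a marker, none was called by edgeR and 1 was called up by DESeq2, and 5 had an unadjusted p below 0.05, 4 of them higher. The list's most abundant genes, Il4ra and Irf4, measured 76.3 ± 3.09 and 71.6 ± 5.75 CPM and 22.4 ± 1.86 and 18.1 ± 1.46 CPM (SD, n = 4). Other, less abundant genes of the list lay higher in the stress group with overlapping groups and were not called, Mrc1 with a log2 fold change of 1.44 (adjusted p = 0.131), Cd209a with 1.41 (0.0174) and Clec10a with 1.23 (0.112). Of the 13 tested genes 8 had a log2 fold change above 0 and 5 below. Among the lower were Pdcd1lg2, with a log2 fold change of -0.62, and Ear2, with -0.51, neither called and both with overlapping groups.

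**Figure D5:**
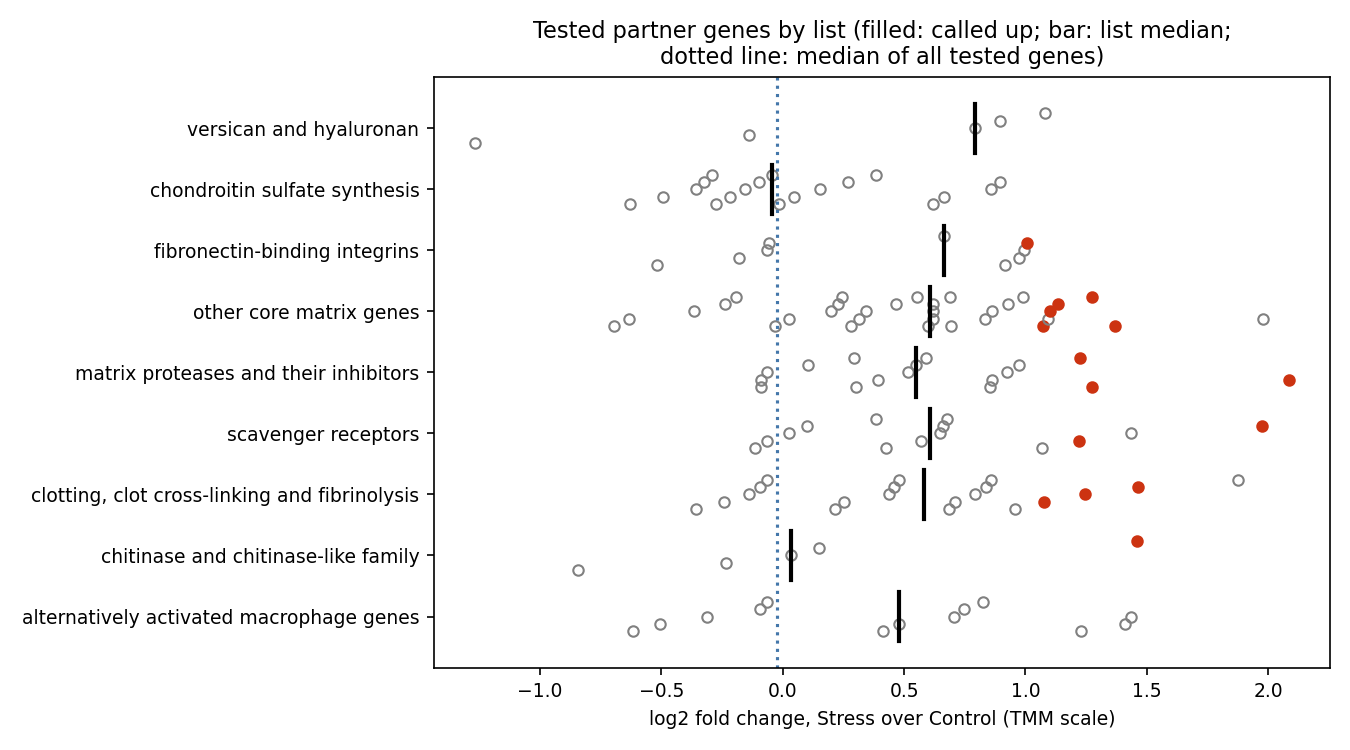
Log2 fold change of stress over control (horizontal axis, TMM scale) of the 131 tested partner genes in 9 lists (vertical axis; 1 gene may stand in more than 1 list). Filled points are the 15 genes called up, bars are list medians, and the dotted line is the median of all tested genes at -0.02.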

How the data were processed

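Whole peripheral blood of 4 control and 4 stress samples was sequenced, and the table the authors deposited holds raw counts of reads for each gene symbol, 1 column per sample and not normalized. The submitters' processing notes name the mm10 genome (GRCm38), HISAT2 and featureCounts; their versions, the annotation, the strand setting and filters are not given in the sources used here. The columns were assigned by the sample names in the labels. The members and the 9 partner and 14 cell marker lists were chosen with earlier results of these data known.

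Counts were fitted in R 4.3.3 with edgeR 4.0.16 (TMM, robust quasi-likelihood test, all 8 samples, group as the only term) for the 11718 genes that reached 10 counts in 4 or more samples, with Benjamini-Hochberg adjustment over all of them. A call needed a log2 fold change beyond 1 in either direction with an adjusted p under 0.01, as in the study. The 5 genes were part of the fit and of the adjustment, and no p is given for them. Total counts per sample are given with the results. Each group held only 4 samples, and the levels of Vcan and Msr1 rest on low counts. How far either limited their precision was not tested.

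Genes were named by a fixed rule: up to 5 called genes of a partner list by smallest p, its 2 most abundant genes where none was called, the called genes of a cell marker list (up to 3), its most abundant gene, and the 3 genes most like each of the 5 by r within groups (log2 CPM with a prior count of 2, mean count of at least 50). Ccr2, the fourth called classical monocyte marker, Chil5, Has3, Csgalnact1, Chst12, Mrc1, Cd209a, Clec10a, Pdcd1lg2, Ear2, the platelet markers Gng11, Pf4 and Treml1, the neutrophil markers Il1r2, Hdc, Ly6g, Cxcr2 and Trem1 and the genes without a read were named after their values were seen. So were the monocyte markers Ms4a4c, Ms4a6c, Ly86 and Klf4 and the B cell markers Cd22, Blk, Fcer2a and Cr2. Sums of markers use all genes of a list with the 5 left out. Gene models came from GENCODE M21 and promoters from RefSeq; coding sequences were aligned with Biopython 1.88. Alternatives were DESeq2 1.42.0, other normalizations and count filters, a prior count of 2, an adjusted p below 0.05, a replicate block and fits without 1 of the samples, in which the filter was 10 counts in 3 or more samples. The fit was tested on simulated data.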

Additional observations from a re-analysis of the deposited data

Results flagged for a closer look

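In 56 groups of 4 samples checked for a sample far from the others, 4 stood out, where chance flags about 1 in 20 groups. A sample stood out when its gap to the nearest other sample took up an unusually large share of the group's whole range. For Msr1 in the control group the share was 0.985, since control replicate 3 stood at 0.737 CPM and the other control samples between 0.598 and 0.600 CPM. For the summed non-classical monocyte markers in the stress group it was 0.846, with stress replicate 1 at 176 CPM and the others between 128 and 135 CPM. For the summed mature neutrophil markers in the stress group it was 0.835, with stress replicate 4 at 960.1 CPM and the others between 726 and 765 CPM. For the summed versican and hyaluronan genes in the stress group it was 0.881, with stress replicate 3 at 113 CPM and the others between 135 and 138 CPM.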

How the results depend on the processing

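The log2 fold changes of Vcan and Fn1 moved by less than the spread between replicates under every alternative run, and those of the 5 genes stayed above 0 throughout. That spread, as SD on the log2 scale, was widest for these genes, at 1.20 for Vcan and 0.66 for Fn1. It was 0.56 for Chil3, 0.51 for Msr1 and 0.21 for F13a1. Staying within it therefore does not make Vcan and Fn1 the steadiest of the 5 genes. Vcan was not tested with 10 counts required in all samples, so that setting gives no value for it, and its control level rests on 6 to 54 reads per sample. With total counts alone the log2 fold change was 2.22 for Chil3, 1.90 for Msr1 and 0.53 for F13a1. With the counts outside the haemoglobin genes as library size, chosen after seeing the data, it was 0.89 for F13a1. Leaving out each sample in turn gave 3.97 to 4.83 for Vcan, 1.91 to 2.47 for Fn1, 2.67 to 3.15 for Chil3, 2.45 to 2.91 for Msr1 and 1.18 to 1.36 for F13a1.

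Among all genes, 14 were called up and 729 down with total counts alone, 57 and 137 with the counts outside the haemoglobin genes, 307 and 12 with DESeq2, and 337 and 20 at an adjusted p below 0.05. Upper quartile normalization gave 4 called down, as did no count filter. Leaving out a sample gave 76 to 336 called up and 1 to 8 down. Of the partner genes, 2 were called up and 4 down with total counts alone, 4 and 2 with the counts outside the haemoglobin genes, and 7 to 20 and 0 to 1 with a sample left out. The cause of these differences was not tested.

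With log2(CPM + 1), r within groups was 0.942 for Vcan and Fn1, 0.805 for Vcan and Chil3 and 0.231 for Vcan and F13a1. With total counts alone it was 0.868 for Vcan and Chil3, and for F13a1 it was 0.827 with Vcan, 0.929 with Fn1, 0.83 with Chil3 and 0.846 with Msr1. Without Lyz2 in the summed classical monocyte markers, the log2 fold of the ratio was 2.26 for Chil3, 2.02 for Msr1 and 0.76 for F13a1.

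The labels do not say whether the replicate numbers pair the samples. Over the tested genes, deviations from the group means of control and stress samples with the same number had r of 0.0621, 0.000441, -0.0445 and -0.160. An r over so many genes cannot exclude a pairing that touches only some of them. With a replicate block 189 genes were called up and 1 down, and 16 and 0 of the partner genes. The log2 fold change was then 3.97 for Vcan, 2.81 for Chil3, 2.53 for Msr1 and 1.28 for F13a1 and 2.001 for Fn1. Olr1 and Timp3 among the partner genes and Ccr2 among the monocyte markers were not called with the block (adjusted p = 0.0251, 0.0252 and 0.04997), nor were the platelet markers Gng11, Pf4 and Treml1 (0.0234, 0.0232 and 0.0114) and the dendritic cell marker Xcr1 (0.0157).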

Other observations

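Other cell marker lists of whole blood are given as summed CPM of control and stress samples (SD, n = 4 each), and no difference between the sums was tested. For comparison, 1.69% of all tested genes were called up. Immature neutrophil markers measured 17.5 ± 4.74 and 49.5 ± 10.6, with Anxa1 the most abundant and Lcn2 and Anxa1 called up of 5 tested. Endothelial markers measured 26.4 ± 5.14 and 55.4 ± 7.77, mostly Esam, which platelets also express, with Esam and Plvap called up of 5 tested, in 7 and 4 of the 8 fits that left out a sample. Of 8 tested erythroid markers none was called by edgeR or DESeq2, 5 had an unadjusted p below 0.05, all higher, and the sum, mostly Alas2, was 16697 ± 7254 and 30108 ± 9276.

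No lymphocyte marker was called up. All 10 B cell markers were tested and none was called by edgeR or DESeq2, 8 had an unadjusted p below 0.05, all lower, and the sum was 1184 ± 132 and 865 ± 98.7, with Cd79a the most abundant. For 6 of the 10 every stress sample lay below every control sample, against 9.87% of all tested genes. Cd22 (log2 fold change -0.72), Blk (-0.51), Fcer2a (-0.72) and Cr2 (-0.79) missed a call only by the size of the fold change. Their adjusted p in edgeR's test lay between 0.00345 and 0.00743. For 13 tested T and NK cell markers none was called by either tool, 1 had an unadjusted p below 0.05 and was lower, and the sum was 541 ± 19.96 and 524 ± 57.5, with Tcf7 the most abundant. Dendritic cell markers summed to 127 ± 8.35 and 109.6 ± 16.2, mostly Wdfy4, with Xcr1 called up of 10 tested by edgeR and 3 by DESeq2. The call of Xcr1 held in 4 of the 8 fits that left out a sample. Eosinophil and basophil markers summed to 10.3 ± 1.12 and 8.60 ± 1.01, mostly Il5ra, with none called of 5 tested by either tool and 2 at an unadjusted p below 0.05, 1 of them higher. Of the hepatocyte markers 1 of 10 was tested, Trf, and it was called up, from 4.93 ± 1.20 to 15.1 ± 4.53.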
